A study of Mus musculus with 9 samples.

Results

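Across mouse adipocyte cultures of 3 genetic backgrounds, 8 transcription factor genes that act on fat cell formation and lipid synthesis were followed: Srebf1, Mlxipl, Nr1h3, Stat5a, Stat5b, Gata2, Gata3 and Foxc2. The members were chosen by name, as 8 of the 24013 gene symbols measured, and all 8 were found under those symbols. Poly(A) RNA came from cultured adipocytes that had been differentiated from stromal vascular cells of inguinal fat, a subcutaneous depot. The 3 groups, with 3 libraries each, were C57BL6/J (B6), 129X1/SvJ (129) and their F1, and no group carried an engineered allele. Confluent cells of every group received for 48 hours the hormones insulin (850 nM) and T3 (1 nM), the PPARG agonist rosiglitazone (1 µM), the glucocorticoid dexamethasone (1 µM), isobutylmethylxanthine (0.5 mM) and indomethacin (125 nM) in 10% fetal bovine serum. Insulin, T3, rosiglitazone and serum were then continued, and RNA was taken on day 7. The labels give no age or sex, leave the direction of the F1 cross open, and do not say whether libraries came from separate animals or cultures. The p-values below therefore measure the spread between these libraries, which may be technical.

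Srebf1, Mlxipl and Nr1h3 form the lipogenic arm of the set. SREBP1, the product of Srebf1, is made as a membrane-bound precursor whose released part activates genes of fatty acid synthesis, and ChREBP, the product of Mlxipl, activates an overlapping set in response to glucose metabolites. LXR alpha, the product of Nr1h3, is a nuclear receptor for oxysterols that pairs with RXR and activates sterol transport genes as well as Srebf1 itself. STAT5A and STAT5B are phosphorylated by JAK kinases after growth hormone or prolactin binds its receptor, move to the nucleus and promote fat cell differentiation. GATA2 and GATA3 are zinc finger factors of preadipocytes that hold back differentiation. FOXC2 is a forkhead factor known in fat for raising sensitivity to cAMP through protein kinase A.

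Values were RPKM, reads per kilobase of exon scaled to the assigned reads of the library, which set genes of different length on 1 scale. Assigned reads numbered between 19130022 and 26931438 for B6, between 23710908 and 28473083 for 129 and between 39686986 and 53410947 for F1, so every F1 library was deeper than every parental library. Adipocyte markers were abundant in all libraries. All 10 of them were tested, and their summed level was 26153 to 30085 RPKM in B6, 30256 to 32561 in 129, and 34235 to 36614 in the F1 libraries. Most of that sum was Fabp4, and the other 9 gave 4520 to 5231, 4768 to 5058 and 4366 to 4616. In the test described below, 2 of the 10 were higher and 2 lower in 129 than in B6. Over all genes 15.9% were higher and 21.7% lower. The higher count was 1 without B6 replicate 1, 129 replicate 1 or 129 replicate 3, and the lower count was 1 without 129 replicate 2. Lep was only 1.03 to 1.43 RPKM. The lymphatic endothelial markers, all under an RPKM of 1, summed to at most 0.496 in any library. In cultures of mixed cells, fewer cells of a type and less RNA per cell cannot be told apart.

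Stat5a and Stat5b are neighbouring copies, so the sequence that separates their reads is shown first. In mm9 Stat5a lies on chromosome 11 from 100720665 to 100746483 on the plus strand, and Stat5b on the minus strand from 100642045 to 100711899, 8766 bp away. Their coding sequences in GENCODE M21 were 90.8% identical, and the longest stretch without a difference ran for 324 bases from coding base 571. Of all 50-base windows of the Stat5a coding sequence, 25.9% also occurred in Stat5b. A read that falls wholly in such a window cannot be assigned to either gene by its sequence alone. Coding bases 45 to 164 are given below with the 33 differing bases in capitals, followed by the first 120 bases of the shared stretch.
Stat5a coding 45 to 164: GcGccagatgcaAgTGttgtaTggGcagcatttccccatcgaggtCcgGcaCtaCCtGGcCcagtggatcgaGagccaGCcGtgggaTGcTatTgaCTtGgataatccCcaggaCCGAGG
Stat5b coding 45 to 164: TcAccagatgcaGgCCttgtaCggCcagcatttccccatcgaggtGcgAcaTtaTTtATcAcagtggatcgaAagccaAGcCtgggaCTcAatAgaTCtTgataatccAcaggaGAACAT
Shared from coding base 571: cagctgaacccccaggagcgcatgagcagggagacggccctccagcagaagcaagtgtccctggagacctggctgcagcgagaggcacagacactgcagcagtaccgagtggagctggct

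None of the 50-base windows of Nr1h3, Srebf1, Mlxipl and Gata2 occurred in the coding sequence of its relative, which was Nr1h2, Srebf2, Mlxip and Gata3 in turn. For Foxc2 against Foxc1 the share was 0.279%. The other loci in mm9 were chromosome 11 from 60012591 to 60034106 on the minus strand with 19 exons for Srebf1, chromosome 5 from 135582761 to 135614252 on the plus strand with 17 exons for Mlxipl, and chromosome 2 from 91024218 to 91035273 on the minus strand with 10 exons for Nr1h3. Gata2 lies on chromosome 6 from 88148658 to 88157026 on the plus strand with 6 exons, Gata3 on chromosome 2 from 9778705 to 9800227 on the minus strand with 6 exons, and Foxc2 on chromosome 8 from 123640071 to 123642794 on the plus strand as a single exon. In Srebf1, 107 exonic bases overlapped Rai1 on the opposite strand, and the sources used here do not say whether counting used strand. Rai1 stood at 5.80 ± 0.540 RPKM in B6, 6.71 ± 0.292 in 129 and 5.79 ± 0.519 in F1 (SD, n = 3), far below Srebf1 in every group.

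The 250 bases before each transcript start were taken from the RefSeq table for GRCm38.p6, which matched every member except Foxc2. Stretches are printed for Gata2 and Nr1h3, the members with the largest differences described below. Those of Mlxipl are printed because they held matches to the lipogenic motifs. Both strands were searched, and matches are in capitals. The lipogenic motifs were CACGTG, which is the E-box of the carbohydrate response element, and TCACNCCAC, a sterol regulatory element. The STAT5 motif searched was TTCNNNGAA. The zinc finger factors were represented by the motif AGATAA, and the forkhead factors by the motif TGTTTAC. The CCAAT box was searched as these letters and the GC box as the letters GGGCGG, both added after the sequences had been viewed.
Gata2 chr6:88198414-88198663, plus strand: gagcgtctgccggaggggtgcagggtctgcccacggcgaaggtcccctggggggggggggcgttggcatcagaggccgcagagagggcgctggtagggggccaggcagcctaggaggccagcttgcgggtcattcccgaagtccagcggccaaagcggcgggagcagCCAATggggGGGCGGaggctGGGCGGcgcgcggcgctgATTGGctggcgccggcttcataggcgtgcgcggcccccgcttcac
Nr1h3 chr2:91195117-91195366, minus strand: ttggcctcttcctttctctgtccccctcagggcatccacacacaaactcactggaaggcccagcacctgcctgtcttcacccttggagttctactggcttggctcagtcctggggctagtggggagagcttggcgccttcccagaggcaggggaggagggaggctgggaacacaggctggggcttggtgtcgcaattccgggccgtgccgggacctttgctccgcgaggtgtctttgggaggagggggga
Mlxipl chr5:135089640-135089889, plus strand: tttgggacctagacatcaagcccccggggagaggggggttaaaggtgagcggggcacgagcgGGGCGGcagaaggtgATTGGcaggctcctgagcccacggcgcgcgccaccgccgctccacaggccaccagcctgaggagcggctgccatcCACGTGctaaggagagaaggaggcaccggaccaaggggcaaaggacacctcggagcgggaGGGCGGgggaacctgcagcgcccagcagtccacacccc
Mlxipl chr5:135106641-135106890, plus strand: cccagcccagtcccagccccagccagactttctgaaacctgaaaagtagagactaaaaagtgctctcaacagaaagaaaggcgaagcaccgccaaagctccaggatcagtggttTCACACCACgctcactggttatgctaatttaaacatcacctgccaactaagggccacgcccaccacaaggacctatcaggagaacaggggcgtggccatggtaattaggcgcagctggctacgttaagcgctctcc

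The E-box of Mlxipl began 98 bases before its start and the TCACACCAC match 136 bases before the other start, and no match in these stretches overlapped another. Gata2 held CCAAT at 83 and, on the other strand, at 45 bases before its start, with GGGCGG at 74 and 63 bases. The Nr1h3 stretch held none of the letters searched. Among 32851 promoter windows of the same length, CACGTG occurred in 6.02%, TCACNCCAC in 1.05%, TTCNNNGAA in 7.02%, AGATAA in 9.99%, TGTTTAC in 3.17%, CCAAT in 33.9% and GGGCGG in 32.7%. These matches describe letters in the window only.

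The members spanned a wide range of levels and fell into an abundant and a scarce part. Averaged over the 9 libraries, Srebf1 lay above 97.7% of all rows, Mlxipl above 94.4%, Nr1h3 above 94.1%, Stat5a above 85.9% and Stat5b above 74.8%. Gata2 lay above 49.7%, Foxc2 above 45.1% and Gata3 above 41.0%. Srebf1 came first in each group with no overlap with the next gene, and Stat5a and Stat5b held ranks 4 and 5 in each group, again without overlap with their neighbours. The order between Nr1h3 and Mlxipl changed with the group. In B6 Nr1h3 had the higher mean and the libraries overlapped, in 129 Mlxipl was higher without overlap, and in F1 Mlxipl was higher with overlap. Gata2, Foxc2 and Gata3 followed in that order, with overlap between Foxc2 and Gata3 in 129 and between Gata2 and Foxc2 in F1.

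**Figure D1:**
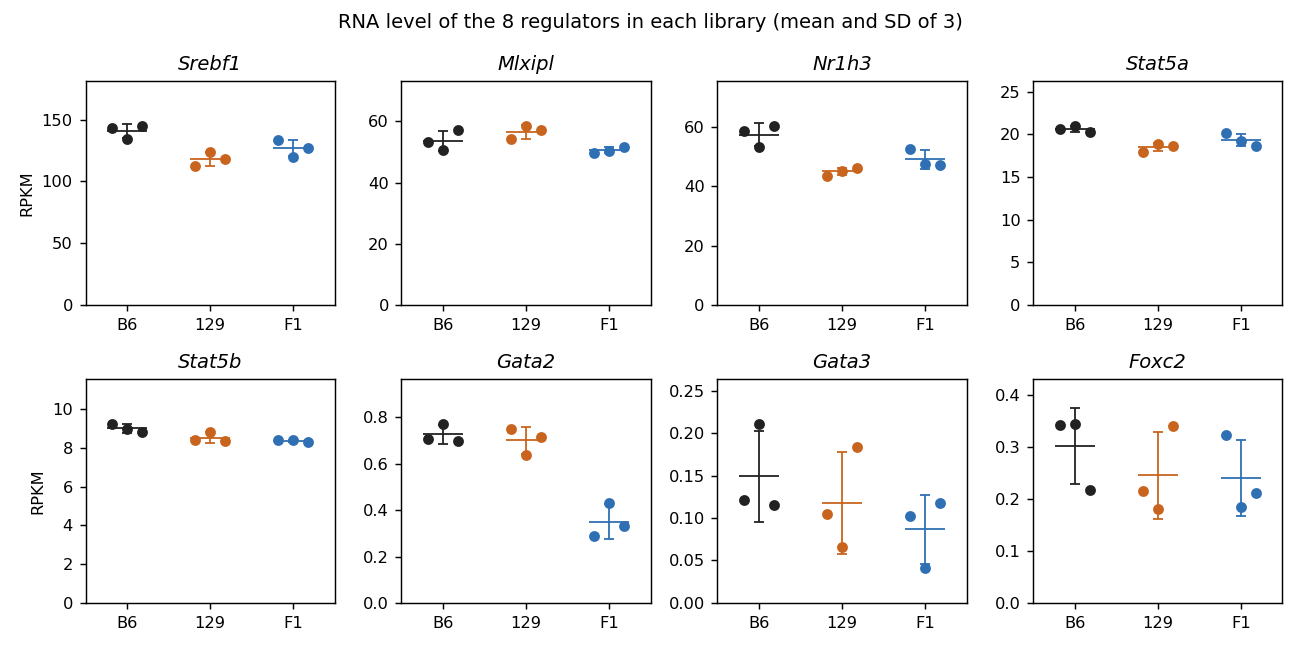
RPKM of each regulator (vertical axis, linear and from 0, with its own scale per panel) in the 3 libraries each of B6, 129 and F1; points are libraries, horizontal bars group means and error bars SD. Srebf1, Nr1h3 and Stat5a lie lower in all 129 libraries than in all B6 libraries, and Gata2 lies lower in all 3 F1 libraries than in all parental ones.

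The first comparison set 129 against B6, the contrast between the parental strains. Srebf1, Nr1h3 and Stat5a were lower in 129, by 0.25, 0.34 and 0.15 on the log2 scale, while the differences of Mlxipl and Stat5b did not pass the test. Testing used limma on log2(RPKM + 1) for the 11542 genes with an RPKM of at least 1 in at least 3 libraries, with p adjusted over all of them and a threshold of 0.05. This left 5 members tested and 3, Gata2, Gata3 and Foxc2, below the limit. Of the 5, 3 were lower and 0 higher (0 higher also at an unadjusted p under 0.05 and with voom, a count-based version of limma, on reads recovered from the RPKM values). Over all genes tested 21.7% were lower and 15.9% higher. The median difference of the 5 was -0.15, against -0.03 over all genes.

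Srebf1 stood at 143, 134 and 145 RPKM in B6, at 112, 124 and 118 in 129, and at 133, 120 and 127 in F1. The lowest B6 library was above the highest 129 library, and F1 overlapped 129 only. The means were 141 ± 5.67 in B6 and 118 ± 5.63 in 129 (SD, n = 3), a log2 difference of -0.25 (SE 0.05, adjusted p = 0.00401). The call held when any 1 library was left out.

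Nr1h3 stood at 58.6, 53.1 and 60.2 RPKM in B6, at 43.5, 45.2 and 46.0 in 129, and at 52.6, 47.3 and 47.1 in F1. All F1 libraries thus lay between the parental ranges, above every 129 and below every B6 library. Of the tested members it had the largest parental difference, -0.34 (SE 0.06, adjusted p = 9.21e-04), with means of 57.3 ± 3.72 in B6 and 44.9 ± 1.29 in 129 (SD, n = 3). The call held without each library in turn. Macrophages also express Nr1h3, and some macrophage markers were lower in 129 as well. Of 9 tested, 3 were lower (C1qa, C1qb and C1qc, the chains of complement C1q) and 0 higher. Over all genes 21.7% were lower and 15.9% higher. Without B6 replicate 1, B6 replicate 2, B6 replicate 3 or 129 replicate 1 the lower count was 2. It was 4 without F1 replicate 1 and 5 without 129 replicate 2. Without B6 replicate 3, 1 marker was called higher. Csf1r and Cd14 were not lower (log2 differences 0.01 and 0.21), and neither passed. The remaining differences were negative and did not pass. The summed level of the 10 measured was 46.9 to 59.2 RPKM in B6, 22.5 to 49.5 in 129, and 40.3 to 60.2 in the F1 libraries, and without Lyz2 18.5 to 22.5, 8.69 to 17.0 and 13.9 to 22.3. Their part in the Nr1h3 difference was not tested.

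Mlxipl did not follow Nr1h3. Its levels were 53.1, 50.8 and 57.1 RPKM in B6 against 54.1, 58.5 and 57.2 in 129, overlapping ranges with a log2 difference of 0.08 (SE 0.05, adjusted p = 0.257). Within a library the level of Mlxipl divided by that of Nr1h3 was 0.906, 0.956 and 0.948 in B6, 1.24, 1.29 and 1.24 in 129, and 0.942, 1.06 and 1.09 in F1. The 129 ratios were above all others, and those of F1 and B6 overlapped. With 3 libraries against 3, an exact two-sided permutation test cannot give a p below 0.1, which was its value for 129 against B6.

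Stat5a stood at 20.6, 21.0 and 20.2 RPKM in B6, at 18.0, 18.8 and 18.6 in 129, and at 20.1, 19.2 and 18.7 in F1. Every 129 library was below every B6 library, and the log2 difference was -0.15 (SE 0.04, adjusted p = 0.0144). Without 129 replicate 1 the difference was -0.13 and the call was lost (adjusted p = 0.056). Stat5b stood at 9.26, 8.98 and 8.82 in B6, at 8.43, 8.84 and 8.35 in 129, and at 8.41, 8.39 and 8.28 in F1. The parental ranges of Stat5b met, and its log2 difference of -0.07 (SE 0.04) did not pass (adjusted p = 0.196). The ratio of Stat5a to Stat5b was 2.29 ± 0.0581 in B6, 2.16 ± 0.0566 in 129 and 2.31 ± 0.0725 in F1 (SD, n = 3). The parental ratios overlapped, so a change of 1 copy relative to the other was not shown between the strains.

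The second comparison set F1 against each parent and against the mid-parent value, which averages the log2 levels of B6 and 129. Among the tested members Nr1h3 was lower in F1 than in B6 and Mlxipl lower in F1 than in 129, and no other difference passed. Against B6, 1 of 5 was lower, with 20.2% of all genes lower and 11.0% higher. Against 129, 1 of 5 was lower, with 15.7% of all genes lower and 12.0% higher. Against the mid-parent value 0 of 5 passed, with 14.8% of all genes lower and 8.35% higher. At an unadjusted p under 0.05, 1 of the 5 differed from mid-parent, Mlxipl, and voom on the recovered reads called 0 of the 5. After median-of-ratios rescaling, the calls over all genes were more even: 1700 genes were higher and 1781 lower against B6, in place of 1270 and 2329. Against mid-parent they were 1279 and 1381, in place of 964 and 1712.

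Nr1h3 in F1 averaged 49.0 ± 3.12 RPKM, a log2 difference of -0.22 from B6 (SE 0.06, adjusted p = 0.0154) and of 0.12 from 129 (SE 0.06, adjusted p = 0.153). The call against B6 was lost without B6 replicate 1, B6 replicate 3, F1 replicate 2 or F1 replicate 3, where the difference was -0.19 to -0.20 and the adjusted p 0.056 to 0.058. Mlxipl in F1 was tight, at 49.6, 50.4 and 51.5 RPKM, below all 129 libraries and overlapping B6. Its log2 difference from 129 was -0.16 (SE 0.05, adjusted p = 0.0345). That call was lost when B6 replicate 1, 129 replicate 2, 129 replicate 3 or any of the F1 libraries was left out, with adjusted p-values of 0.0503 to 0.119 and differences of -0.14 to -0.18.

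Srebf1 in F1 averaged 127 ± 6.55 RPKM, with log2 differences of -0.15 from B6 (SE 0.05, adjusted p = 0.0559) and 0.10 from 129 (SE 0.05, adjusted p = 0.202). Every F1 library was below every B6 library, and the adjusted p was above the threshold. With voom the Srebf1 difference from B6 passed (adjusted p = 0.0472). Stat5a differed from B6 by -0.09 (adjusted p = 0.124) and Stat5b by -0.10 (adjusted p = 0.0918), again with all F1 libraries below all B6 libraries. For each of these genes the exact permutation test gave p = 0.1, the smallest it allows. The share of all genes separated in this way was not counted, and the median difference from B6 over all genes was -0.04. From mid-parent the log2 differences were -0.03 for Srebf1, -0.12 for Mlxipl, -0.05 for Nr1h3, -0.01 for Stat5a and -0.06 for Stat5b. The signs for Srebf1 and Stat5a turned after median-of-ratios rescaling, so no direction is given for them.

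**Figure D2:**
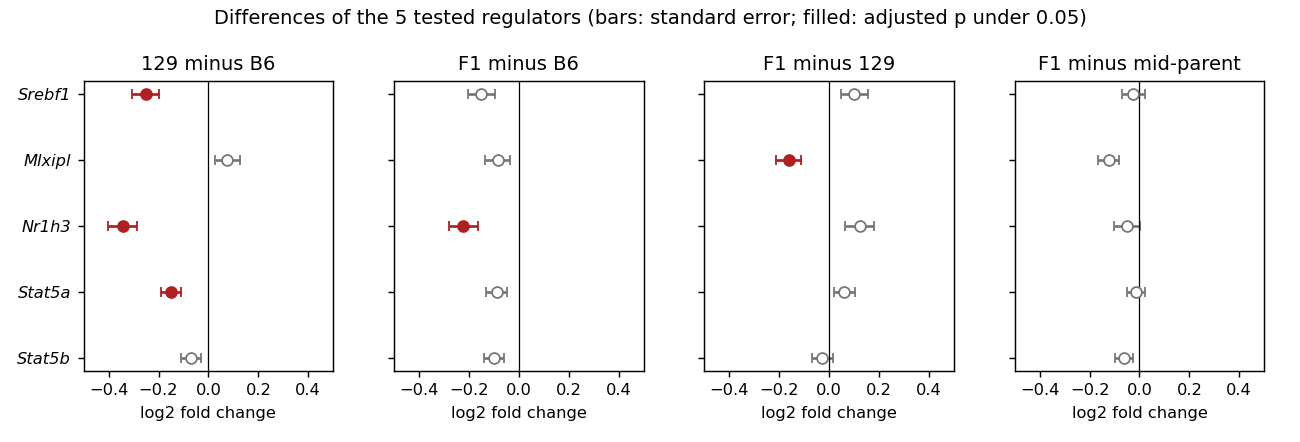
Log2 fold change of log2(RPKM + 1) for the 5 tested regulators (horizontal axis) in the 4 contrasts; points are limma estimates from 9 libraries, bars standard errors, and filled red points passed an adjusted p of 0.05. Srebf1, Nr1h3 and Stat5a pass in 129 minus B6, Nr1h3 alone in F1 minus B6, Mlxipl alone in F1 minus 129, and no gene in F1 minus mid-parent.

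Gata2 had the largest difference of any member, and it set F1 apart from both parents. Its level was 0.709, 0.774 and 0.698 RPKM in B6, 0.752, 0.639 and 0.715 in 129, and 0.287, 0.433 and 0.331 in F1. The highest F1 library was below the lowest parental library, and the parental ranges overlapped. The F1 mean of 0.351 ± 0.0746 (SD, n = 3) was 0.482 of the B6 mean of 0.727 ± 0.0407 and 0.500 of the 129 mean of 0.702 ± 0.0575. These levels rested on 168 reads in all of B6, 172 in all of 129 and 166 in all of F1. Summed over each group they give 0.722 RPKM (0.617 to 0.840), 0.698 (0.598 to 0.811) and 0.357 (0.305 to 0.416), with exact 95% Poisson intervals that cover counting error only.

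Because Gata2 was below the limit of the main test, its tests come from other settings. The exact permutation test gave p = 0.1 against each parent, the smallest it allows. With no filter on low values, limma gave an adjusted p of 0.00134 against B6, 0.00222 against 129 and 0.00173 against mid-parent. In simulated data the main test called too many unchanged genes, mostly among the genes with the fewest reads. The setting without a filter was not simulated. On that setting 12.8%, 9.89% and 8.57% of 19079 genes were lower. In voom on genes with at least 10 reads in at least 3 libraries, a setting added after the data were seen, the log2 differences were -1.04 (SE 0.17, adjusted p = 3.86e-04), -0.99 (SE 0.17, adjusted p = 6.41e-04) and -1.01 (SE 0.15, adjusted p = 2.33e-04). There 21.6%, 16.7% and 16.3% of 13979 genes were lower. The parental strains were not called different in that setting (129 minus B6 -0.05, SE 0.17, adjusted p = 0.844). Of the 2558 genes below the RPKM limit with at least 10 reads in at least 3 libraries, 184, or 7.19%, also had all F1 libraries below all parental ones.

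Gata2 is known in preadipocytes, mast cells and endothelium, and those markers moved differently. Of 8 tested adipocyte progenitor markers, 4 were lower in F1 than in B6, 4 lower than in 129 and 6 lower than mid-parent. In any of the 3 contrasts 0 were higher. Over all genes 20.2%, 15.7% and 14.8% were lower and 11.0%, 12.0% and 8.35% higher. Without F1 replicate 3 the marker counts were 2, 3 and 3. The summed level of the 9 measured was 628 to 764 RPKM in B6, 643 to 675 in 129, and 474 to 567 in the F1 libraries. Ly6a and Thy1 made up most of it. The other 7 markers, a sum taken after the values were seen, gave 91.6 to 99.8 in B6, 136 to 150 in 129, and 81.3 to 90.0 in the F1 libraries, so F1 lay just under B6 and the parents differed more. Cd34, a progenitor surface marker, averaged 16.8 in B6, 23.6 in 129 and 11.5 in F1. Pdgfra, a growth factor receptor of progenitors, averaged 43.8 in B6, 81.2 in 129 and 41.7 in F1, so it separated F1 from 129 but not from B6. The part of progenitor markers in the Gata2 difference was not tested. Mast cell markers other than the tryptase Tpsab1 summed to 2.44 to 2.84 in B6, 1.57 to 2.30 in 129, and 1.97 to 2.33 in the F1 libraries, with Ms4a2 and Tpsb2 at 0 in every library. Endothelial markers summed to 6.28 to 7.66, 3.38 to 4.51 and 5.19 to 5.57, so neither sum put F1 below both parents. Most of that mast cell sum was a single marker, Cpa3. The mast cell marker Hdc averaged 0.105 in B6, 0.0487 in 129 and 0.0309 in F1. The endothelial marker Kdr averaged 0.436, 0.319 and 0.272. Both means were lowest in F1, with libraries that overlapped 129, and no other marker of either list had its F1 mean below both parents. The part of these cells in the Gata2 difference was not tested.

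Gata3 was the scarcest member. It stood at 0.121, 0.211 and 0.115 RPKM in B6, 0.105, 0.0655 and 0.184 in 129, and 0.102, 0.0408 and 0.118 in F1, from 6 to 19 reads a library. All 3 groups overlapped. Foxc2 stood at 0.343, 0.345 and 0.218 in B6, 0.216, 0.181 and 0.341 in 129, and 0.324, 0.186 and 0.212 in F1, from 14 to 35 reads a library, and its groups overlapped as well. In voom on genes with at least 10 reads the Gata3 difference between F1 and B6 was -0.86 with an SE of 0.44 (adjusted p = 0.150), and that of Foxc2 was -0.37 with an SE of 0.29 (adjusted p = 0.362). A difference of the size seen in Gata2 was therefore not resolved in Gata3 at this depth. Gata3 also marks T cells and innate lymphoid cells. Of those 8 markers 7 were under an RPKM of 1 in all libraries, and Cd3g was at 0. The only one tested, Il1rl1, the receptor for interleukin 33, stood at 1.62, 1.54 and 1.02 RPKM in B6, 1.72, 1.16 and 1.16 in 129, and 0.615, 0.793 and 0.820 in F1. All its F1 libraries were below all parental ones, and it was lower in F1 than in B6 (log2 difference -0.45, adjusted p = 0.0158), 129 (-0.42, adjusted p = 0.0239) and mid-parent (-0.44, adjusted p = 0.0125). It passed the limit on low values only through parental libraries, and each of these calls was lost without F1 replicate 1. Its part in the values of Gata2 and Gata3 was not tested.

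**Figure D3:**
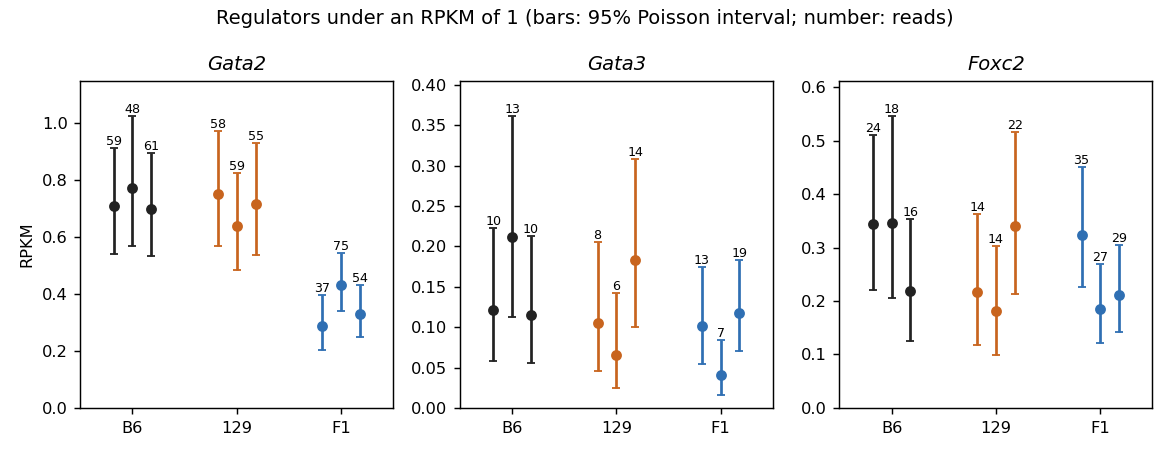
RPKM of Gata2, Gata3 and Foxc2 in each library (vertical axis, linear and from 0); error bars are exact 95% Poisson intervals of the read count, which is printed above each bar. For Gata2 all 3 F1 libraries, at 37 to 75 reads, lie below the parental libraries at 48 to 61 reads from shallower sequencing, while the groups overlap for Gata3 and Foxc2.

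Partners of the lipogenic factors were all measured above the limit. In 129 minus B6, 1 of 16 was higher and 4 lower. Over all genes 15.9% were higher and 21.7% lower in that contrast, which also applies to the lists below. Leaving out 1 library left 0 lower without B6 replicate 1, 1 without 129 replicate 2 or 3, and 2 without B6 replicate 2, B6 replicate 3 or 129 replicate 1. The gene that rose in 129 was Insig2, which retains the SREBP precursor in the endoplasmic reticulum, from 23.0 ± 1.74 to 29.0 ± 1.18 RPKM (log2 difference 0.33, SE 0.05, adjusted p = 8.15e-04), and this held without each library in turn. The 4 lower genes were Mlx, the dimer partner of ChREBP, and Srebf2, Insig1 and Ncoa2, the last 3 named after their values were seen. Rxra, the partner of LXR alpha, was lower in F1, at 17.0 ± 0.107 RPKM against 21.4 ± 0.249 in B6, with a log2 difference of -0.23 (SE 0.03, adjusted p = 8.54e-04) from 129. Relative to their paralogs, Srebf1 was 6.74, 6.30 and 6.42 times the level of Srebf2 in B6, 129 and F1, with overlapping libraries. Nr1h3 was 2.03 ± 0.135 times the level of Nr1h2, which encodes LXR beta, in B6, against 1.48 ± 0.0535 in 129 and 1.49 ± 0.0315 in F1 (SD, n = 3). All B6 ratios of this pair were above all others, and the exact permutation p was 0.1 for B6 against either group. Nr1h2 itself averaged 28.3 RPKM in B6, 30.4 in 129 and 32.9 in F1. It was higher in F1 than in B6 (log2 difference 0.21, adjusted p = 0.0202), a call lost without B6 replicate 1 or F1 replicate 1.

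Lipogenic target genes of SREBP1 and ChREBP were called in both directions. In 129 minus B6, 2 of 16 tested were higher (Pnpla3 and Thrsp), 1 was lower (Elovl6) and 13 did not pass, and without B6 replicate 2 the counts were 4 and 3. In F1 minus B6, 5 were higher and 8 lower, beside the 11.0% and 20.2% of all genes given above. Whether the list differed more in F1 than between the parents was not tested. In F1 minus mid-parent, 5 were higher and 9 lower, beside 8.35% higher and 14.8% lower over all genes. The higher count was 3 without F1 replicate 3. The median of the list was -0.18 against -0.03 over all genes. The lower ones included Acly, which makes cytosolic acetyl-CoA (944 ± 62.5 RPKM in B6, 855 ± 25.5 in 129 and 685 ± 31.5 in F1), and Fasn, the fatty acid synthase (830 ± 22.6, 868 ± 57.1 and 670 ± 11.8), both named after their values were seen. Acacb, an acetyl-CoA carboxylase likewise named afterwards, was among the higher ones (42.0 ± 3.21, 45.7 ± 2.47 and 51.6 ± 2.85, F1 minus B6 0.29, adjusted p = 0.00629). Me1, the NADPH-producing malic enzyme, fell to 742 ± 32.0 in F1 from 1035 ± 40.5 in B6 and 941 ± 62.8 in 129, and Mid1ip1, an activator of acetyl-CoA carboxylase, to 33.8 ± 2.87 from 55.1 ± 6.57 and 48.4 ± 0.899. The desaturase gene Scd1, also named after its values were seen, was higher in F1, at 12135 RPKM against 8319 in B6 and 9332 in 129 (F1 minus mid-parent 0.47, adjusted p = 0.0109, lost without F1 replicate 3). In the same F1 libraries Srebf1 lay between the parental means, and Mlxipl was below both parental means with only the difference from 129 passing. Pnpla3, a lipid droplet acyltransferase and lipase, differed most in this list between the parents. It averaged 28.6 ± 0.537 RPKM in B6, 65.7 ± 0.671 in 129 and 48.7 ± 1.66 in F1, with the opposite order to Srebf1.

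LXR target genes split in direction while Nr1h3 was lower in 129. Of 9 tested, 2 were higher (Apoe and Arl4c), 3 lower (Abcg1, Mylip and Lpcat3) and 4 did not pass, beside 15.9% higher and 21.7% lower over all genes. Without F1 replicate 1 the lower count was 5, and Arl4c, at 0.519 RPKM in B6 and 1.76 in 129, reached the limit on low values only through the 129 libraries. Apoe, the apolipoprotein of lipid export, rose from 119 ± 10.5 RPKM in B6 to 1122 ± 49.6 in 129, 9.45-fold, with 642 ± 43.8 in F1. Abcg1, a sterol exporter, moved the other way, from 12.8 ± 1.24 to 5.23 ± 0.444 (log2 difference -1.15, SE 0.07, adjusted p = 5.21e-07). In F1 it stood at 12.0 ± 0.0544, a difference from B6 of -0.09 that did not pass (adjusted p = 0.349). Lpcat3, a phospholipid acyltransferase, fell from 224 ± 4.20 in B6 to 184 ± 2.37 in 129 and stood at 183 ± 6.05 in F1.

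Upstream of STAT5, 1 of 9 tested genes was higher in 129 and 0 lower, and 1 was lower without 129 replicate 2, F1 replicate 1 or F1 replicate 3. The gene that rose was Ghr, the growth hormone receptor, at 138 ± 3.06 RPKM in B6, 195 ± 8.51 in 129 and 141 ± 4.77 in F1. Its log2 difference was 0.49 (SE 0.05, adjusted p = 1.45e-05) for 129 minus B6 and -0.22 (SE 0.04, adjusted p = 0.00346) for F1 minus mid-parent, so F1 resembled B6 in level. Jak2, the kinase bound to that receptor, was level between the parents at 10.4 RPKM each (log2 difference 0.00, adjusted p = 0.997). Of 12 STAT5 targets and feedback inhibitors, 3 were higher in 129 and 3 lower, with 1 lower without 129 replicate 2. The shares over all genes were 15.9% higher and 21.7% lower. Socs2, a feedback inhibitor of growth hormone signalling, averaged 7.30 ± 0.360 in B6, 15.4 ± 0.218 in 129 and 8.15 ± 0.0857 in F1 (129 minus B6 0.99, SE 0.04, adjusted p = 4.07e-08). Igf1, the growth factor induced by growth hormone, averaged 20.1 ± 2.38, 28.7 ± 2.17 and 18.5 ± 1.38 (129 minus B6 0.49, SE 0.08, adjusted p = 9.60e-04). The third gene that rose was Socs3. The 3 lower genes were Igfals, Pdk4 and Socs6, the last named after its values were seen (129 minus B6 -0.23, adjusted p = 0.0148). Pdk4, a kinase that inhibits pyruvate dehydrogenase, averaged 50.2 ± 1.65, 44.5 ± 1.09 and 60.7 ± 3.37, with 129 minus B6 -0.17 (adjusted p = 0.0162, lost without 129 replicate 1 or 129 replicate 2) and F1 minus 129 0.44 (adjusted p = 9.86e-05). Igfals, which encodes a carrier of circulating IGF proteins, fell from 1.19 ± 0.190 to 0.355 ± 0.0977, and reached the limit on low values only with all 3 B6 libraries. Of the other STAT genes 1 of 4, Stat6, was higher in 129 (34.7 ± 2.20 in B6 and 39.2 ± 1.55 in 129, adjusted p = 0.0199), a call lost without B6 replicate 1, B6 replicate 3 or 129 replicate 2. Without B6 replicate 2, 2 of these genes were lower. Stat3, 1641 bp from Stat5a, stood at 42.7 and 43.2 in the parents and did not pass (adjusted p = 0.844).

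Among GATA relatives and cofactors, 4 of 9 were tested, and 2 of them, Gata6 and Zfpm2, were higher in 129 than in B6 and lower in F1 than in 129. In F1 minus 129, 15.7% of all genes were lower and 12.0% higher. Gata6 averaged 2.78 ± 0.299 RPKM in B6, 4.52 ± 0.245 in 129 and 3.22 ± 0.170 in F1, and so stood above Gata2 and Gata3 in every group. Zfpm2, which encodes the FOG2 cofactor of GATA factors, averaged 1.70 ± 0.170, 2.30 ± 0.117 and 1.56 ± 0.0310. No gene of this list was lower in 129, and without 129 replicate 2 the count was 1. For this list and the next 2, the shares over all genes were 15.9% higher and 21.7% lower in 129. Gata5 was at 0 in every library. Of 12 other forkhead genes tested, 2 were higher in 129 and 4 lower, with 2 lower without B6 replicate 1 or 129 replicate 1. Foxc1, the close relative of Foxc2, was among the higher ones at 2.24 ± 0.255 in B6, 2.99 ± 0.346 in 129 and 2.57 ± 0.0617 in F1, and was named after its values were seen. Foxn3, a forkhead repressor, fell from 5.40 ± 0.162 to 3.60 ± 0.252. The list downstream of FOXC2 held protein kinase A subunits and the angiopoietin gene Angpt2. Of its 7 genes, 1 was higher in 129, which was Angpt2, and 2 were lower. Prkaca, the catalytic subunit, fell from 126 ± 2.64 to 96.4 ± 0.567 (log2 difference -0.38, SE 0.04, adjusted p = 1.41e-05), and Prkar2b, a regulatory subunit, from 195 ± 7.83 to 158 ± 1.33. Angpt2, an angiopoietin of vessel remodelling, rose from 1.23 ± 0.208 to 1.84 ± 0.143.

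**Figure D4:**
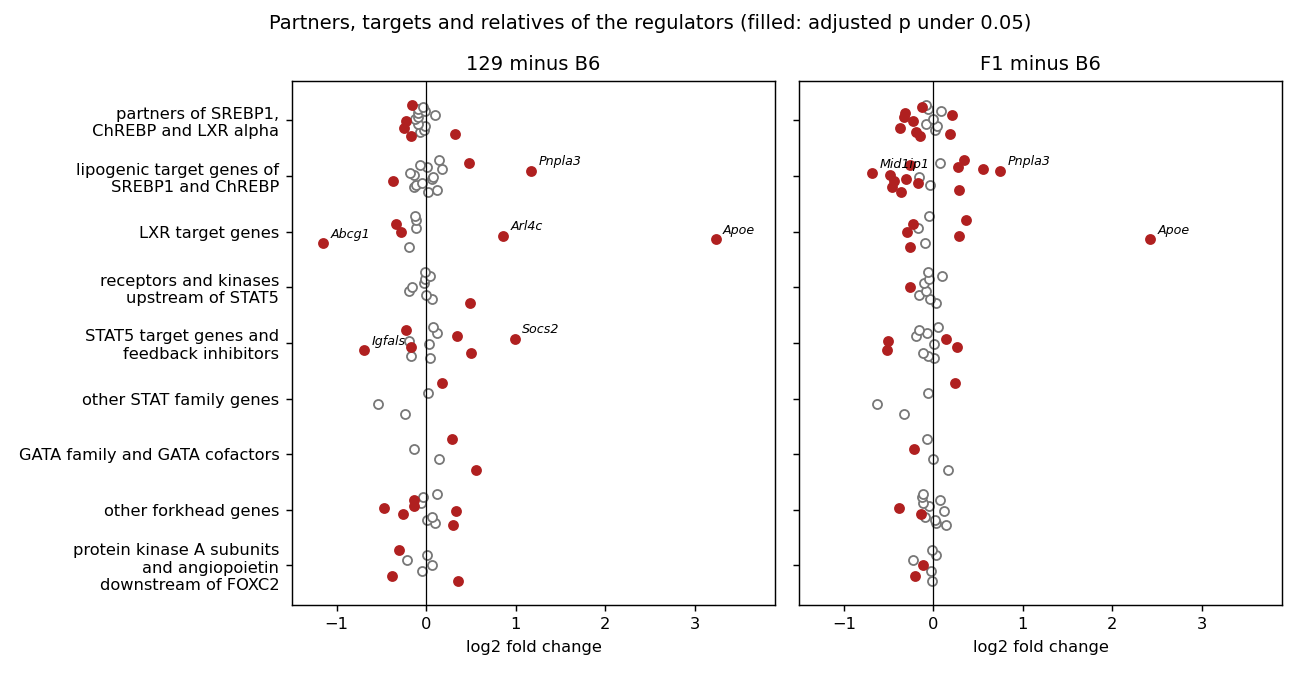
Log2 fold change of each tested gene (horizontal axis) in the lists of partners, targets and relatives, for 129 minus B6 and F1 minus B6; each point is a gene, filled red points passed an adjusted p of 0.05, and genes beyond 0.65 on either side are named. Among the lipogenic targets Pnpla3 stands farthest from 0 between the parents, and Apoe and Socs2 rise in 129 while Abcg1 falls.

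The genes whose levels followed each tested member most closely over the 9 libraries were found among 10883 genes by Pearson correlation of log2(RPKM + 1). Srebf1 was followed by Pgpep1 (r = 0.984), a peptidase gene, and Pex14 (r = 0.983), which encodes a peroxisomal import protein. Nr1h3 was followed by Sgta (r = 0.989), a co-chaperone gene, and also by Pex14 (r = 0.989). Pex14 averaged 81.3 RPKM in B6, 63.1 in 129 and 69.6 in F1. Stat5a was followed by the zinc finger gene Zfp385a (r = 0.982) and by Sympk (r = 0.978), a scaffold of RNA 3′ end processing. Mlxipl was followed by Dio2 (r = 0.955), the deiodinase that activates thyroid hormone, and the zinc finger gene Zfp14 (r = 0.935), and Stat5b by Zfp105 and Mfsd7c (r = 0.956 each). These values share 9 libraries and 3 group means, and are given as a description.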

How the data were processed

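The authors deposited RPKM values, 1 per gene and library, and per the submitters' processing notes used STAR and mm9. For the read counter, annotation, versions and filters the sources give nothing. mm9 is a C57BL/6J assembly, and its effect on reads of 129 origin was not tested. The table held 24015 rows and 24013 symbols, and 5 unnamed columns were not used. Read counts were recovered from the steps of the deposited RPKM values (tolerance 0.1 read). Their variance between replicates was 3.83 to 15.1 times that of counting error (chi-square per degree of freedom), so no library was a copy of another.

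log2(RPKM + 1) was fitted with limma 3.58.1 (R 4.3.3) with a mean-variance trend and 1 mean per group. Genes reaching an RPKM of 1 in 3 or more of the 9 libraries were kept, and p-values were two-sided with Benjamini-Hochberg adjustment. On the log2(RPKM + 1) scale, changes of low genes are understated. The procedure was tested on simulated data. There, unchanged genes made up a larger share of the calls on average than the adjusted threshold allows, and most of them were among the genes with the fewest reads. Among the other genes the share stayed under the threshold. Calls of genes with few reads are therefore less certain than their adjusted p-values state; the members that entered the main test have more reads than those genes. The members and lists were chosen with earlier results of these data known. The rule named the 4 genes of each list with the smallest moderated F-test p, and the 2 genes most correlated with each member. One gene that this rule names is not reported here. Alternatives were another pseudocount (0.1), no filter, a mean RPKM of at least 5, median-of-ratios rescaling, a replicate block, voom on recovered reads and leaving out each library. Coding sequences were the longest open reading frames of GENCODE M21 transcripts.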

Additional observations from a re-analysis of the deposited data

How the results depend on the processing

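Between 129 and B6 the 3 members called stayed at 3 in every alternative run except without 129 replicate 1, where 2 were called. For F1 minus B6, where 1 was called, the count was 2 with no filter, 2 with voom and 3 with voom on genes with at least 10 reads, and 0 to 2 when single libraries were left out. For F1 minus 129, also 1, it was 2 with no filter and 2 with voom on at least 10 reads, and 0 to 1 without single libraries. For F1 minus mid-parent it was 0, then 1 with no filter, 1 with voom on at least 10 reads, and 0 to 1 without single libraries, where Mlxipl passed without B6 replicate 2. The extra calls with no filter were Gata2. The added voom setting, chosen after seeing the data, also called Srebf1 against B6. Signs turned in F1 minus mid-parent for Srebf1 (0.0011 with median-of-ratios rescaling, and -0.0612 to 0.0130 without single libraries, above 0 without F1 replicate 2) and Stat5a (0.0116, and -0.0419 to 0.0094, above 0 without F1 replicate 3); the cause was not tested. With the replicate block the counts were 3, 1, 1 and 0, and it changed no other call of a member. Deviations of libraries with the same number correlated at -0.19 to 0.22, over 0.1 in 4 of 9 pairs, so the numbers were not taken to pair libraries. Of the counts for the companion lists 993 were within 1.5 times the value given and 159 were not. Gata3 and Foxc2 are limited by depth, at 6 to 35 reads a library.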
